A study of Mus musculus with 12 samples.

Results

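The microRNAs miR-5616-3p and miR-871-5p were measured through 10 probes of a small RNA array, taken by probe identifier from the 14192 small RNA probes on each array, of which 9709 were miRNA probes. They were selected because both miRNAs were higher after knockdown of OCT4, so the siOCT4 vs. siNT values below are a description and carry no test. The selection held 5 identifiers for each miRNA. One of them, ASMM10SMR20MIRNA100005345TV1, was not listed with any miRNA in the study's probe list, which gives miR-5616-3p the next 5 identifiers instead. The last of these, ASMM10SMR20MIRNA100005350TV1, lay outside the selection and is described with the others, so that each miRNA had 5 listed probes. The remaining 9 of the 10 selected probes were listed with the miRNA they were chosen for.

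RNA came from MASMC, the smooth muscle cells of the mouse aorta, in primary culture. OCT4, encoded by Pou5f1, is a transcription factor of pluripotent cells, and POVPC is an oxidized phospholipid. All cells were transfected with siRNA for 48 h without serum and then treated for 24 h. The 12 one-colour arrays formed 4 groups of 3. The siNT-DMSO group received pooled non-target siRNA and the vehicle DMSO, and the siNT-POVPC group the same siRNA and POVPC at 10 μg/mL. The siOCT4-DMSO group received siRNA against Oct4 and DMSO, and the siOCT4-POVPC group siRNA against Oct4 and POVPC at 10 μg/mL. Knockdown with siRNA is partial and transient. The Oct4 transcript and marker miRNAs of smooth muscle were not analysed here, so neither the depth of the knockdown nor the identity of the cells was checked on these arrays. In such bulk samples, fewer cells of a type and less RNA per cell cannot be told apart. No source used here says that the arrays of a group came from separate cultures, so that p-values measure the spread between these samples, which may be technical.

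MicroRNAs are short RNAs cut from hairpin precursors, and either arm of the hairpin (5p or 3p) can give a mature strand. A mature miRNA finds its target mRNAs mainly through its seed, bases 2 to 8. The gene of miR-871 lies among miRNA genes on the X chromosome that are best known for expression in the testis.

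The mature sequences, taken from RefSeq on GRCm38.p6, show that the miRNAs share no seed, since the seeds (capitals) differ. For miR-5616-3p no other mature mouse miRNA among those searched has the same seed, while miR-871-5p shares its seed with miR-743a-5p, a miRNA of the same cluster. The reference table holds 1679 mature mouse miRNAs, and the search left out those on a single chromosome. Further miRNAs with either seed are therefore not excluded.
miR-5616-3p: aACUUGUGaugaggugagacag
miR-871-5p: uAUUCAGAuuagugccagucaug
miR-743a-5p: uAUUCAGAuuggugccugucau

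miR-5616-3p is the 3′ arm of a hairpin at chr4:149537863-149537922 on the plus strand, and the mature strand lies at chr4:149537901-149537922. This hairpin falls within the span of the protein-coding gene Ctnnbip1, at chr4:149518241-149566437. Whether it is exonic or intronic is not given in the table used. miR-871-5p is the 5′ arm of a hairpin at chrX:66810428-66810504 on the minus strand, and the mature strand lies at chrX:66810472-66810494. The nearest annotated miRNA gene, Mir470, was 3447 bases away. The hairpins are shown to place the measured arm, in capitals, beside the arm that none of the described probes reads, again from RefSeq.
Mir5616: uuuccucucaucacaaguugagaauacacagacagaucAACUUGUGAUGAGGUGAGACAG
Mir871: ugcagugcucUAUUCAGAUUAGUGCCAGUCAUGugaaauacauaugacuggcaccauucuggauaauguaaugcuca

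The 5 listed probes of a miRNA differ in length. Each has a target part that starts with G and goes on with the reverse complement of the 3′ end of the mature miRNA, as did all 520 probes whose sequence the study's list gives. In pCp-Cy3 labelling a C is ligated to the 3′ end of the RNA. The target parts are shown, 5′ to 3′, because the length is what sets the probes apart. Capitals mark the bases that a probe has beyond the shortest probe of the same miRNA.
miR-5616-3p, ASMM10SMR20MIRNA100005350TV1: gctgtctcacctcat
miR-5616-3p, ASMM10SMR20MIRNA100005348TV1: gctgtctcacctcatC
miR-5616-3p, ASMM10SMR20MIRNA100005346TV1: gctgtctcacctcatCA
miR-5616-3p, ASMM10SMR20MIRNA100005347TV1: gctgtctcacctcatCAC
miR-5616-3p, ASMM10SMR20MIRNA100005349TV1: gctgtctcacctcatCACA
miR-871-5p, ASMM10SMR20MIRNA100002379TV1: gcatgactggcact
miR-871-5p, ASMM10SMR20MIRNA100002377TV1: gcatgactggcactAA
miR-871-5p, ASMM10SMR20MIRNA100002376TV1: gcatgactggcactAAT
miR-871-5p, ASMM10SMR20MIRNA100002375TV1: gcatgactggcactAATC
miR-871-5p, ASMM10SMR20MIRNA100002378TV1: gcatgactggcactAATCT

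The target parts are 15, 16, 17, 18 and 19 bases for miR-5616-3p and 14, 16, 17, 18 and 19 bases for miR-871-5p, and the probes are called by these lengths below. Every probe is 60 bases in all, with a 26-base hairpin before the target part and a tail after it. The longest run of any other mature mouse miRNA that was complementary to a miR-5616-3p probe was 11 bases, for miR-7672-5p and miR-3535. No other mature miRNA had a complementary run of 11 bases or more on a miR-871-5p probe. For miR-871-5p itself the first base of the tail extends the 16-base and 18-base target parts, so that the 16-base and 17-base probes both paired over 16 bases and the 18-base and 19-base probes both over 18.

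All 10 listed probes were well above background on all 12 arrays, and the unlisted probe was so on 11. Over the series, between 7706 and 11759 small RNA probes were well above background on an array, with no saturated spot. The slide of each array was inferred from its scan date, and no slide identity was read. By this, slide 1 carried the siNT groups together with siOCT4-DMSO replicates 1 and 2. Slide 2 carried siOCT4-DMSO replicate 3 together with the siOCT4-POVPC group. siOCT4-DMSO replicate 3 was the brightest array, with a median processed signal of 24.1 against 5.59 to 8.73 on the others. Levels below are log2 quantile-normalized signals, and levels of different probes are not comparable.

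For the 17-base probe of miR-5616-3p, the siNT-DMSO arrays read 4.43, 4.53 and 4.57 and the siNT-POVPC arrays 4.28, 4.44 and 4.30. The siOCT4-DMSO arrays read 9.63, 9.55 and 8.58, and the siOCT4-POVPC arrays 9.25, 9.36 and 9.35. All 6 siOCT4 arrays thus lay above all 6 siNT arrays by a wide gap, and within siOCT4-DMSO replicate 3 stood apart below the other two. Before normalization the probe read between 14.0 and 22.8 on the siNT arrays and between 472 and 806 on the siOCT4 arrays. The highest unnormalized value, 806, was that of siOCT4-DMSO replicate 3, the bright array, whose normalized value was the lowest of the siOCT4 arrays. The group means were 4.51 ± 0.07 (SD, n = 3) in siNT-DMSO and 9.25 ± 0.59 in siOCT4-DMSO, a change of 4.74 ± 0.28 (SE) on the log2 scale or 26.7-fold. Under POVPC they were 4.34 ± 0.09 and 9.32 ± 0.06, a change of 4.98 ± 0.11 or 31.5-fold.

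The 18-base probe of miR-5616-3p read 4.45, 4.47 and 4.36 in siNT-DMSO and 7.74, 7.61 and 6.75 in siOCT4-DMSO. It read 4.44, 4.51 and 4.40 in siNT-POVPC and 7.46, 7.50 and 7.51 in siOCT4-POVPC. Here too the siNT and siOCT4 arrays did not overlap, and the siOCT4-POVPC arrays were close together while siOCT4-DMSO replicate 3 was low. The differences were 2.94 ± 0.26 (SE) under DMSO and 3.04 ± 0.10 under POVPC.

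The 19-base probe of miR-5616-3p read 4.54, 4.64 and 4.50 in siNT-DMSO, 4.35, 4.37 and 4.49 in siNT-POVPC, 7.26, 6.90 and 6.20 in siOCT4-DMSO, and 7.04, 7.12 and 7.15 in siOCT4-POVPC. Its differences were 2.23 ± 0.26 under DMSO and 2.70 ± 0.11 under POVPC. The 16-base probe read 4.75, 4.75 and 4.41 in siNT-DMSO, 4.48, 4.34 and 4.42 in siNT-POVPC, 6.75, 6.39 and 5.58 in siOCT4-DMSO, and 6.15, 6.36 and 6.33 in siOCT4-POVPC. The 16-base probe thus had the same order of groups with a smaller gap, of 1.60 ± 0.29 under DMSO and 1.86 ± 0.11 under POVPC. The 15-base probe, outside the selection, read 4.47, 4.66 and 4.67 in siNT-DMSO, 4.56, 4.60 and 4.23 in siNT-POVPC, 5.33, 5.28 and 4.97 in siOCT4-DMSO, and 5.17, 5.29 and 5.20 in siOCT4-POVPC. It had the smallest gap of the 5, at 0.60 ± 0.16 under DMSO and 0.76 ± 0.13 under POVPC, yet its siNT and siOCT4 arrays did not overlap either.

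**Figure D1:**
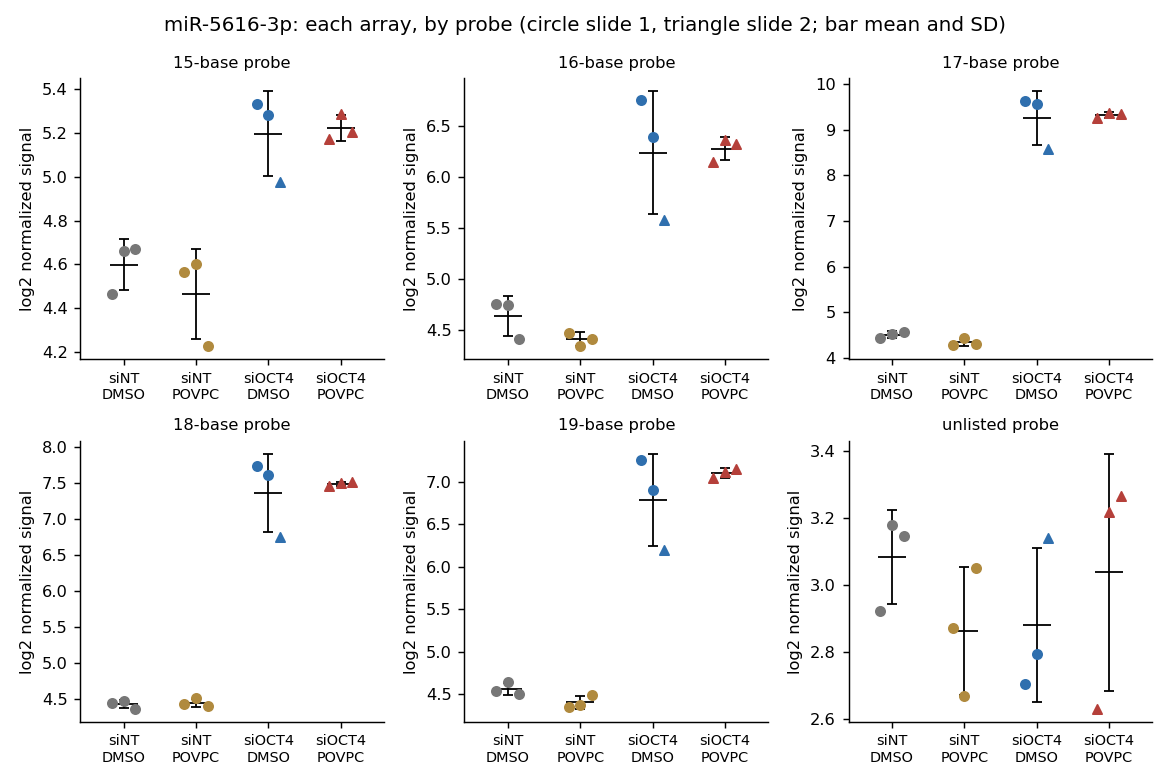
Log2 normalized signal of each array (points, 3 in each of the 4 groups; circles slide 1, triangles slide 2) for the 5 listed probes of miR-5616-3p and the unlisted probe, with the group mean and SD as bars. The scale differs between panels. In the listed probes every siOCT4 array lies above every siNT array and siOCT4-DMSO replicate 3 is the lowest of its group. In the unlisted probe the groups overlap.

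The unlisted probe ASMM10SMR20MIRNA100005345TV1 read 2.92, 3.18 and 3.15 in siNT-DMSO and 2.70, 2.80 and 3.14 in siOCT4-DMSO. In siNT-POVPC it read 2.87, 2.67 and 3.05, and in siOCT4-POVPC 2.63, 3.22 and 3.27. These groups overlapped, with differences between siOCT4 and siNT of −0.20 ± 0.17 under DMSO and 0.17 ± 0.20 under POVPC. This probe, the 4 identifiers before it, the 5 after the listed block of miR-5616-3p and the 5 on either side of the block of miR-871-5p made up 20 probes. They changed by −0.58 to 0.49 under DMSO and by −0.45 to 0.40 under POVPC, and 0 of the 20 were called by limma at an adjusted p of 0.05 and 1.5-fold.

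For the 14-base probe of miR-871-5p, the siNT-DMSO arrays read 4.13, 4.15 and 4.19 and the siNT-POVPC arrays 3.71, 3.95 and 3.93. The siOCT4-DMSO arrays read 6.94, 7.94 and 7.55, and the siOCT4-POVPC arrays 8.19, 8.23 and 8.32. The siOCT4 arrays lay above all siNT arrays, and the siOCT4-DMSO arrays were spread over a range that the other 3 groups did not show. The difference between siOCT4 and siNT was 3.32 ± 0.25 (SE) or 9.99-fold under DMSO and 4.38 ± 0.12 or 20.9-fold under POVPC.

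The 19-base probe of miR-871-5p read 3.97, 4.05 and 3.87 in siNT-DMSO, 3.64, 3.86 and 3.69 in siNT-POVPC, 6.55, 6.32 and 5.91 in siOCT4-DMSO, and 6.55, 6.50 and 6.49 in siOCT4-POVPC. The 18-base probe read 3.50, 3.94 and 3.86 in siNT-DMSO, 3.78, 3.85 and 3.65 in siNT-POVPC, 5.73, 6.02 and 5.63 in siOCT4-DMSO, and 6.15, 6.48 and 6.42 in siOCT4-POVPC. In both probes the siNT arrays formed 1 low cluster and the siOCT4 arrays lay higher. The differences under DMSO and under POVPC were 2.30 ± 0.19 and 2.79 ± 0.11 for the 19-base probe, and 2.02 ± 0.18 and 2.59 ± 0.13 for the 18-base probe.

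The 17-base probe of miR-871-5p read 3.59, 4.08 and 3.84 in siNT-DMSO, 3.70, 3.78 and 3.40 in siNT-POVPC, 5.40, 5.20 and 4.88 in siOCT4-DMSO, and 5.29, 5.52 and 5.49 in siOCT4-POVPC. Its differences were 1.32 ± 0.20 under DMSO and 1.81 ± 0.14 under POVPC. The 16-base probe had the smallest gap of the miR-871-5p probes. It read 3.20, 4.03 and 3.96 in siNT-DMSO, 3.32, 3.72 and 3.53 in siNT-POVPC, 4.08, 4.25 and 4.32 in siOCT4-DMSO, and 4.53, 4.49 and 4.26 in siOCT4-POVPC. siNT-DMSO replicate 1 stood apart below the other two there, and the lowest siOCT4-DMSO array exceeded the highest siNT-DMSO array by a narrow margin. The differences of the 16-base probe were 0.49 ± 0.24 under DMSO and 0.90 ± 0.15 under POVPC.

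**Figure D2:**
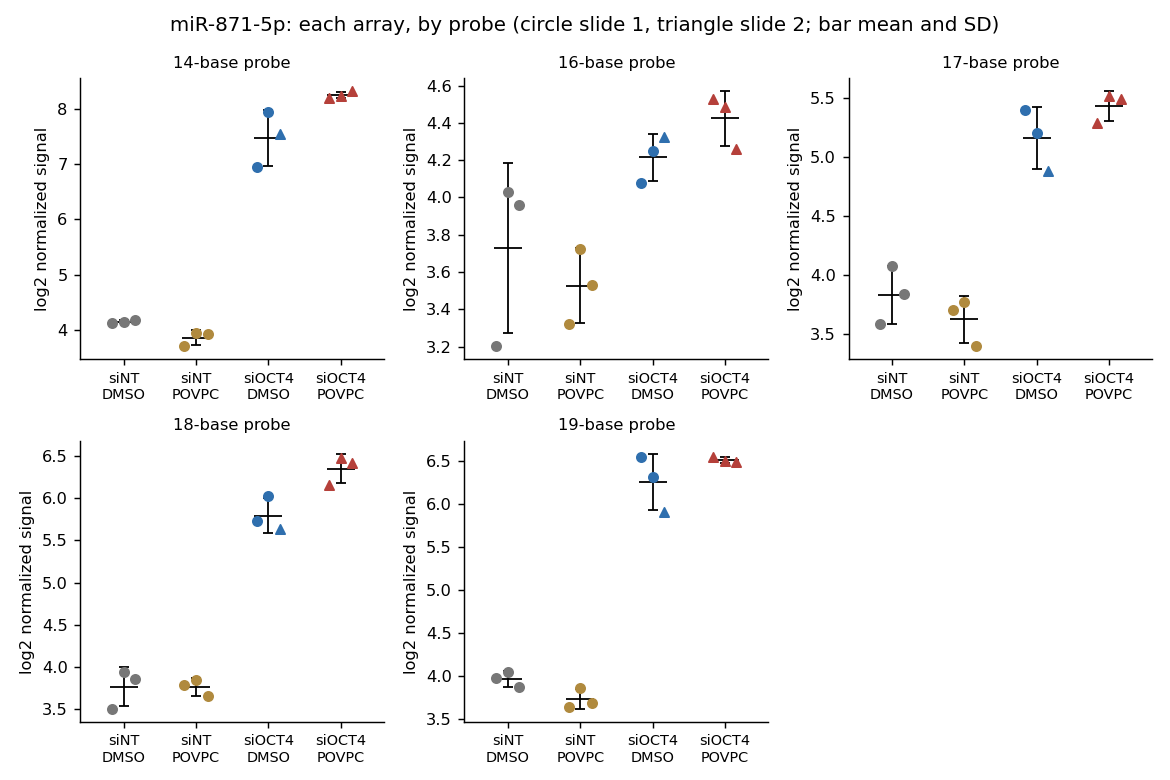
Log2 normalized signal of each array (points, 3 in each of the 4 groups; circles slide 1, triangles slide 2) for the 5 listed probes of miR-871-5p, with the group mean and SD as bars. The scale differs between panels. The siOCT4 arrays lie above the siNT arrays in all 5 probes, by least in the 16-base probe and by most in the 14-base probe, whose siOCT4-POVPC arrays also lie above the siOCT4-DMSO arrays.

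Counted over the 10 selected probes, 8 were called higher in siOCT4-DMSO vs. siNT-DMSO, where 0.383% of the 8621 miRNA probes tested were called higher. In siOCT4-POVPC vs. siNT-POVPC 9 were called higher, against 1.01% of all miRNA probes. These contrasts chose the members, so nothing is read from these counts. The listed probes not called under DMSO were the 16-base probe of miR-871-5p, at 1.40-fold, and the 15-base probe of miR-5616-3p, at 1.51-fold. The first, with a change of 0.49 ± 0.24 (SE), lay below the fold threshold, and the second lay above it. The 16-base probe of miR-5616-3p, called at 3.03-fold, lost its call when any siNT-DMSO array was left out. The arrays did not overlap for 9 of the 10 in both contrasts, against 7.64% of all miRNA probes higher without overlap under DMSO and 10.0% under POVPC.

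The median change of the 5 listed probes was 2.23 for miR-5616-3p and 2.02 for miR-871-5p under DMSO, while the median over all miRNA probes was 0.040. Under POVPC the medians were 2.70 and 2.59, against 0.019 over all miRNA probes. With normexp background correction and an added offset of 50 in place of the scanner's own correction, the medians were 0.78 and 0.43 under DMSO and 0.94 and 0.67 under POVPC, and 4 and 6 of the 10 probes were called higher, against 9 and 12 of all 8621 miRNA probes. The signs of the listed probes were kept while the values were smaller. The offset exceeds the processed signals of the listed probes on the siNT arrays, which lay between 6.15 and 26.7, and the parts of the offset and of the background method in this were not told apart.

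The probes of a miRNA shared the direction of the change but not its size. Changes spread from 0.60 to 4.74 over the miR-5616-3p probes under DMSO, a range of 4.14, and from 0.49 to 3.32 over the miR-871-5p probes, a range of 2.83. Probes of the same miRNA share their target and are not replicates. For comparison, 98 miRNAs named in the study's list of changed miRNAs had 5 tested probes each. Their median range of changes under DMSO was 0.57, and a range at least as wide as that of miR-5616-3p was found for 3 of the 98 and as that of miR-871-5p for 11, these miRNAs included. Under POVPC the ranges were 4.22 for miR-5616-3p and 3.48 for miR-871-5p, the median over the 98 was 0.63, and ranges at least as wide were found for 7 and 12. Over the 21 of these miRNAs that the study listed as higher in siOCT4-DMSO, the median range was 1.04 under DMSO and 1.30 under POVPC. The study listed these miRNAs because they changed.

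The change did not follow probe length in 1 direction. For miR-5616-3p under DMSO it was larger for each base from the 15-base probe (0.60) over the 16-base probe (1.60) to the 17-base probe (4.74), and was smaller again for the 18-base (2.94) and 19-base (2.23) probes. For miR-871-5p it was larger for each base from the 16-base probe (0.49) to the 19-base probe (2.30), while the shortest probe, of 14 bases, had the largest change (3.32). Both orders were the same under POVPC. The 16-base and 17-base probes of miR-871-5p pair with the mature strand over the same 16 bases. Their changes under DMSO were unequal, at 0.49 ± 0.24 and 1.32 ± 0.20 (SE). The 18-base and 19-base probes, which both pair over 18 bases, had closer changes, of 2.02 ± 0.18 and 2.30 ± 0.19.

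**Figure D3:**
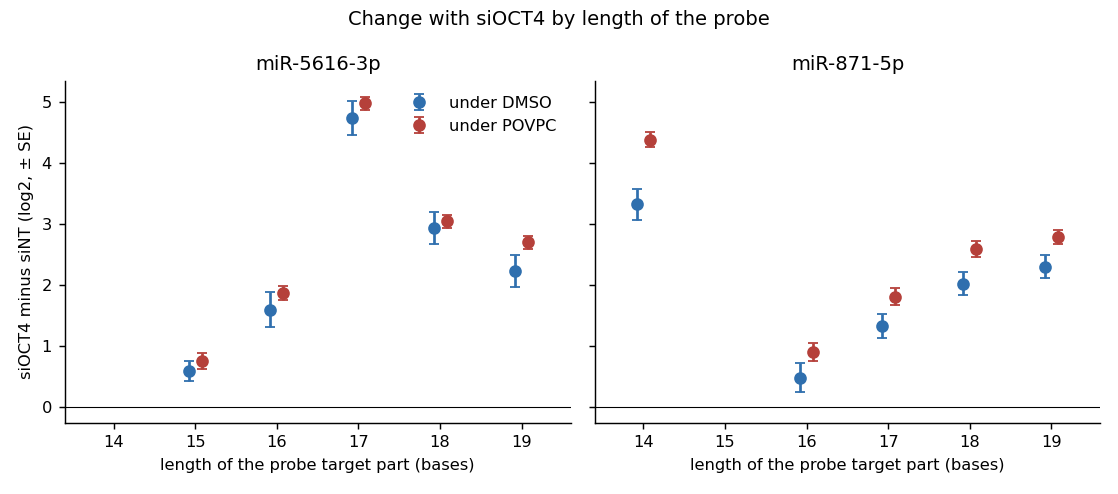
Difference between siOCT4 and siNT (log2, vertical axis, with SE from limma on 3 against 3 arrays) against the length of the target part of the probe (bases), under DMSO (blue) and POVPC (red). The miR-5616-3p changes peak at 17 bases. The miR-871-5p changes are larger with each base from 16 to 19, with the 14-base probe above them all.

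Whether the probes of a miRNA move together from array to array was described by the deviation of each array from its group mean. For miR-5616-3p these deviations correlated between probes with a median r of 0.89 over the 10 pairs of probes and 12 arrays, and the lowest was 0.52. In the siOCT4-DMSO group replicate 3 was the lowest array in all 5 probes. Without the siOCT4-DMSO arrays the median r over 9 arrays was 0.24 and the lowest was −0.43. For miR-871-5p the median r was 0.28 over 12 arrays, with a range from −0.36 to 0.73, and 0.32 without the siOCT4-DMSO arrays. Replicate 3 was the lowest siOCT4-DMSO array in 3 of its 5 probes. All these points share arrays and normalization, and r is given as a description.

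**Figure D4:**
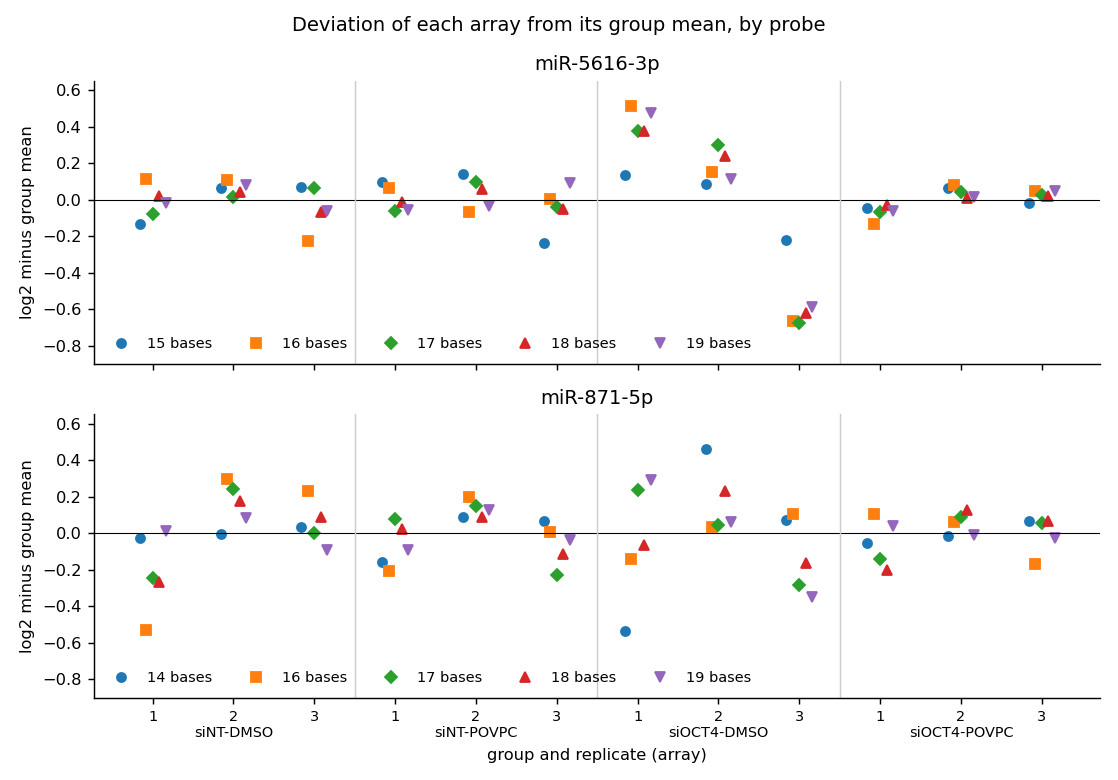
Deviation of each array from the mean of its group (log2, vertical axis) for the 5 listed probes of each miRNA (symbols by length), with arrays in the order of group and replicate. In miR-5616-3p the symbols of siOCT4-DMSO replicate 3 lie together below 0 and those of replicates 1 and 2 above it. In miR-871-5p the symbols of that group scatter to both sides.

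Slide 1 held arrays of siNT-DMSO and siOCT4-DMSO, so the knockdown under DMSO could also be read within a slide. There the median difference of siOCT4-DMSO replicates 1 and 2 from siNT-DMSO was 2.52 for miR-5616-3p and 2.10 for miR-871-5p. siOCT4-DMSO replicate 3, on slide 2, differed from siNT-DMSO by 1.64 and 1.86 in the median probe. For the 17-base probe of miR-5616-3p the value within slide 1 was 5.08 and that of replicate 3 was 4.06. Under POVPC all siNT arrays lay on slide 1 and all siOCT4 arrays on slide 2. With a block for slide in the fit over 12 arrays, an alternative chosen after seeing the data, the medians there were 3.58 and 2.83. That block was estimated only from siOCT4-DMSO replicate 3, the brightest array, against replicates 1 and 2.

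The effect of POVPC itself was not used in the selection and was tested, although it shares its arrays with the contrasts that were. In siNT-POVPC vs. siNT-DMSO 0 of the 10 selected probes were called by limma, and 0 had an unadjusted p under 0.05 (0.220% of all miRNA probes were called). The listed probes had changes of −0.29 to 0.020. The largest change was that of the 14-base probe of miR-871-5p, at −0.29 ± 0.12 (SE, limma adjusted p 0.550). In 3 of the 10 probes (the 19-base probe of miR-5616-3p and the 14-base and 19-base probes of miR-871-5p) the siNT-POVPC arrays all lay below the siNT-DMSO arrays, which was so for 8.68% of all miRNA probes.

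In siOCT4-POVPC vs. siOCT4-DMSO the listed miR-5616-3p probes had changes of 0.024 to 0.31 and the miR-871-5p probes of 0.21 to 0.77. By limma 0 of the 10 selected probes were called, and 2 had an unadjusted p under 0.05 (0% of all miRNA probes were called, and 1096 of 8621 had an unadjusted p under 0.05). These 2 were the 14-base probe of miR-871-5p, at 0.77 ± 0.24 (SE, limma adjusted p 0.260), and its 18-base probe, at 0.56 ± 0.17 (adjusted p 0.258). In both the siOCT4-POVPC arrays lay above all siOCT4-DMSO arrays, as they did for 11.5% of all miRNA probes. The methods' t-test, whose form was assumed, called at an unadjusted p of 0.05 and 1.5-fold 0 of the 10 in either POVPC comparison, where it called 157 of all 8621 miRNA probes in siNT cells and 264 in siOCT4 cells.

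This comparison lay almost wholly across the slides. Within slide 2 the siOCT4-POVPC arrays exceeded siOCT4-DMSO replicate 3 by 0.74 in the median probe of miR-5616-3p and by 0.60 in that of miR-871-5p, while they differed from replicates 1 and 2 on slide 1 by −0.18 and 0.26. With slide as a block, the comparison rests on replicate 3 alone and limma called 3 of the 10 probes higher. These were the 17-base, 18-base and 19-base probes of miR-5616-3p, at 0.75 ± 0.15, 0.74 ± 0.15 and 0.90 ± 0.19 (adjusted p 0.0268, 0.0272 and 0.0297). With the same block 603 of all 8621 miRNA probes were called higher and 413 lower. For miR-5616-3p the sign of the median thus differed with the slide of the siOCT4-DMSO arrays used. Slide 1 held no siOCT4-POVPC array, and slide and treatment could be separated only through 1 array.

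**Figure D5:**
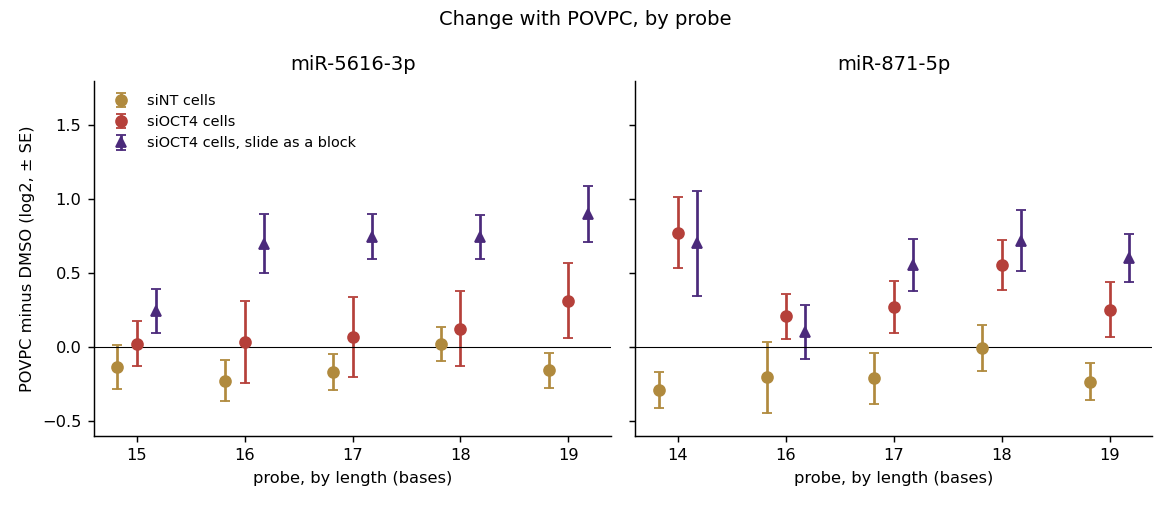
Difference between POVPC and DMSO (log2, vertical axis, with SE from limma) for the 5 listed probes of each miRNA, ordered by length, in siNT cells (ochre), in siOCT4 cells (red) and in siOCT4 cells with slide as a block (purple triangles). The siNT values lie near or below 0. The siOCT4 values of miR-5616-3p lie between 0.024 and 0.31 and move up to between 0.25 and 0.90 with the block. Those of the 17-base and 19-base probes of miR-871-5p move from 0.27 and 0.25 to 0.55 and 0.60, and that of its 16-base probe moves down from 0.21 to 0.10. The 14-base and 18-base probes of miR-871-5p are high in both fits, at 0.77 and 0.56 without the block and 0.70 and 0.72 with it.

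The difference of the POVPC effects between siOCT4 and siNT cells, which equals the difference of the knockdown effects, was positive in all 10 listed probes. It ran from 0.11 to 0.47 for miR-5616-3p and from 0.41 to 1.06 for miR-871-5p. In the fit of all 12 arrays limma called 0 of the 10 selected probes, as it called 0% of all miRNA probes. An unadjusted p under 0.05 was found for 3 of the 10, against 438 of the 8621. These 3 were the 14-base, 18-base and 19-base probes of miR-871-5p, which share their target and are not replicates. The largest difference was that of the 14-base probe of miR-871-5p, at 1.06 ± 0.29 (SE, limma adjusted p 0.880). The median was 0.24 for miR-5616-3p, which became −0.067 without siOCT4-DMSO replicate 3, and 0.49 for miR-871-5p. With slide as a block 4 of the 10 were called, as were 126 of all miRNA probes with a positive difference and 244 with a negative one.

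Of the cluster on the X chromosome that holds Mir871, miR-881-5p and miR-883b-5p could be named as well. Both stood in the study's list of miRNAs higher in siOCT4-DMSO, which was chosen on these samples and is not independent evidence of direction. The 5 probes of miR-883b-5p changed by 1.30 to 1.79 under DMSO with a median of 1.70, and 4 were called. Under POVPC all 5 were called, with changes of 1.84 to 2.21. The 5 probes of miR-881-5p changed by 0.51 to 1.78 under DMSO with 1 called, and by 0.32 to 2.06 under POVPC with 2 called. Of all miRNA probes 0.383% were called higher under DMSO and 1.01% under POVPC. The probes of both miRNAs were dim in siNT cells, and 2 of the 10 were well above background on all 12 arrays, so that the spread of their changes is not set against that of miR-871-5p. With POVPC 0 of the 5 probes of either were called in siNT or in siOCT4 cells, where 0.220% and 0% of all miRNA probes were called. miR-743a-5p, which shares the seed of miR-871-5p, and the other cluster members were not analysed here.

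The study listed 23 miRNAs as higher in siOCT4-DMSO. Without miR-5616-3p and miR-871-5p this left 102 tested probes of 21 miRNAs, whose median change was 0.73 under DMSO and 0.71 under POVPC, with 22 and 51 called higher. Of all miRNA probes 0.383% and 1.01% were called higher. The medians of miR-5616-3p and miR-871-5p, which were selected for their rise in these contrasts, lay above the pooled medians of the 102 probes. A pooled median does not rank them among single miRNAs. In siOCT4-POVPC vs. siOCT4-DMSO the median of the 102 probes was 0.12, with 0 called, as were 0% of all miRNA probes.

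Among the other 10608 small RNA probes tested, those with a profile over the 12 arrays most like the mean of the miR-5616-3p probes were the 19-base probe of miR-871-5p (r = 0.996) and 4 unnamed probes with the code PST (r between 0.996 and 0.998). For miR-871-5p they were 3 unnamed PST probes (r = 0.990 to 0.991) and 2 probes of miR-485-3p (both r = 0.989). These 2 probes had means of 1.91 and 2.10 over the siNT arrays and of 7.17 and 7.43 over the siOCT4 arrays. Nearly all of the variation in these profiles is the step between siNT and siOCT4, which the selection used. The PST probes were not well above background on any siNT array, and the miR-485-3p probes on at most 1, whereas both described miRNAs were measured on all.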

How the data were processed

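Agilent Feature Extraction (version 11.0.1.1 in the submitters' notes) gave the deposited intensity of each spot, its processed signal with background subtracted, which the authors deposited before normalization between arrays. Well-above-background and outlier marks came from the same deposited files. The deposited series table holds log2 values that the authors quantile-normalized in GeneSpring GX. It was used as an alternative only, and its floor and centring are not given in the sources used here.

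Processed signals were quantile-normalized over the 12 arrays, floored at 1 and converted to log2, without outlier spots and controls. A probe well above background on at least 3 arrays was tested by limma (version 3.58.1, under R version 4.3.3; two-sided moderated tests from lmFit and eBayes), pairwise as in the study's methods, with an interaction term over all 12 arrays for the difference of the POVPC effects. Calls needed a fold of 1.5 and, after Benjamini-Hochberg adjustment over the 8621 miRNA probes, a p under 0.05. The study's methods state a p cutoff for the small RNAs but no test. An equal-variance, unpaired, two-sided form was assumed for an alternative called the methods' t-test. An exact permutation test of 3 against 3 arrays cannot go below 0.1. The number of arrays limits the precision.

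Groups follow the source name and title. For 9 of 12 samples the free-text description gave another siRNA or treatment and was not followed. Probe names, lengths and sequences came from the study's list, which names 520 probes of 110 miRNAs, all chosen as changed. Members, lists and tests were chosen with earlier results of these data known. Named are the members, the adjoining identifiers, the named members of the miR-871 cluster and, for each miRNA, the 5 probes with the most similar profile. Alternatives were other scalings, background correction, floor, filters, the series table, other samples in the fit, slide and replicate blocks and leaving out each array.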

Additional observations from a re-analysis of the deposited data

How the results depend on the processing

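All changes of the called probes kept their direction under every alternative run. The filters, the replicate block and the fit of all 12 arrays without a block could not move a median of the listed probes. Under the other alternatives the median change of each miRNA moved by less than the residual SD except in these cases. With normexp it was 0.78 for miR-5616-3p and 0.43 for miR-871-5p in the knockdown under DMSO, 0.94 and 0.67 under POVPC, −0.027 and −0.028 for POVPC in siNT, and 0.16 for miR-871-5p in the difference of the POVPC effects. Scaling to the 75th percentile of all small RNA probes gave miR-5616-3p 2.79 in the knockdown under POVPC and 0.46 for POVPC in siOCT4, and scaling to the same percentile over only the probes measured above background everywhere gave 2.87 and, for POVPC in siNT, −0.29. With slide as a block POVPC in siOCT4 was 0.74 for miR-5616-3p and 0.60 for miR-871-5p with 3 members called, and the difference of the POVPC effects was 0.92 and 0.76 with 4 called. All 12 arrays with slide as a block, added after seeing the data, gave 3.58 and 2.83 in the knockdown under POVPC, and 0.74 and 0.60 for POVPC in siOCT4 with 5 members called, where 423 of all 8621 miRNA probes were called higher and 436 lower. In the fits with slide as a block the slide was estimated only through siOCT4-DMSO replicate 3. The cause of these moves was not tested. Over the 10 listed probes and the unlisted one, 9 of 120 values in the knockdown under DMSO and 9 of 109 under POVPC lost their call under alternatives that kept every array, and 9 of 66 in each did when 1 array was left out. Uncalled changes turned sign in 2 of 109 values for POVPC in siNT, 4 of 120 for POVPC in siOCT4 and 1 of 109 in the knockdown under POVPC, and, when 1 array was left out, in 5 of 66, 6 of 66 and, for the difference, 3 of 132.

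Leaving out 1 array moved the medians of miR-5616-3p and miR-871-5p to 1.99 to 2.52 and 1.89 to 2.11 in the knockdown under DMSO, 2.67 to 2.74 and 2.52 to 2.69 under POVPC, −0.19 to −0.12 and −0.30 to −0.09 for POVPC in siNT, −0.18 to 0.29 and 0.26 to 0.40 for POVPC in siOCT4, and −0.067 to 0.43 and 0.44 to 0.68 for the difference. The lowest miR-5616-3p values for POVPC in siOCT4 and for the difference were those without siOCT4-DMSO replicate 3. In all of them 0 members were called in the POVPC comparisons.

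Whether replicate numbers pair the arrays was not settled. The r of same-numbered deviations ran from −0.38 to 0.56, and with 3 arrays in a group it cannot exclude a pairing. With the number as a replicate block 0 members were called in the POVPC comparisons. The medians stayed at 2.23 and 2.02 under DMSO and 2.70 and 2.59 under POVPC. Each group holds each number once, so this block could not move them, and nothing on pairing is read from that. The dim siNT levels limit how closely a fold can be given.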

Other observations

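Over the 98 named miRNAs with 5 tested probes of different length, the probe with the largest change in the knockdown under DMSO was the shortest for 33, the second shortest for 19, the middle one for 11, the second longest for 17 and the longest for 18. miR-871-5p was among the 33 and miR-5616-3p among the 11. For 4 of the 98 all 5 probes were called in 1 direction under DMSO and for 15 under POVPC, miR-5616-3p and miR-871-5p being among the 15.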
